A study of Mus musculus with 12 samples.

Results

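Liver RNA was examined for 9 genes that make, spend and regenerate the methyl groups of S-adenosylmethionine: Mat1a, Mat2a, Gnmt, Bhmt, Bhmt2, Mtr, Cbs, Pemt and Gamt. For each gene, the probe sets annotated to that gene alone were collected on the Affymetrix Mouse Gene 2.0 ST array, which carries probes along whole transcripts. The probe set with the highest mean over the 12 arrays was kept. Of the 9 genes, 8 had such a probe set, 1 each, and all 8 passed the filter on low values. Mat2a is not analysed here. The 8 genes are part of 22180 genes with a probe set, of which 14031 were tested.

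The arrays fall into 4 groups of 3: wild-type mice on control liquid diet, wild-type mice on ethanol diet, and Pparβ/δ-null mice on each of these diets. The null mice lack PPARβ/δ, a nuclear receptor for fatty acids encoded by Ppard. All mice were males on a C57BL/6 background, aged 8 to 10 weeks. After 1 week of control diet, the ethanol groups received 4% (v/v) ethanol for 16 weeks while the control groups stayed on the liquid control diet. The labels name 10 mice per group but do not say that each array was a separate mouse, so the p-values here rest on a spread that may be partly technical. The labels do not say which part of Ppard was disrupted. The Ppard probe set differed between genotypes by 0.08 ± 0.08 (SE) on the log2 scale (adjusted p = 0.621), and so does not check the genotype labels.

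In the liver, methionine adenosyltransferase turns methionine into S-adenosylmethionine, the cell's main methyl donor. Methyltransferases pass the methyl group on and leave S-adenosylhomocysteine, which is split into homocysteine and adenosine. Homocysteine is either methylated back to methionine, with a methyl group from betaine or folate, or joined to serine on the way to cysteine and glutathione. Long ethanol intake is known for lowering hepatic S-adenosylmethionine and methionine synthase activity, so the design asks how transcripts of this cycle stand after ethanol with and without PPARβ/δ.

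The tissue label was borne out by 10 hepatocyte markers (Alb, Ttr, Hnf4a and others), all past the filter on low values, with summed intensities between 84540 and 95725 in every array. Macrophage and Kupffer cell markers differed with genotype: 11 of 12 were called lower in null livers over both diets, with a median log2 difference of -0.52. Their summed intensity ran from 5633 to 9079 over the wild-type arrays and from 3571 to 6578 over the null arrays. In whole tissue, fewer cells of a type and less RNA per cell cannot be told apart. Calls on the other marker lists in this comparison were few: Tdo2 of 10 hepatocyte markers, Hal of 7 periportal ones, Oat of 10 pericentral ones, and Pecam1 and Tek of 10 sinusoidal endothelial ones were lower. Of the 10 sinusoidal endothelial markers, 9 had a negative difference and 1 a positive one, with a median of -0.32 on the log2 scale. Among them 6 passed at an unadjusted limma p under 0.05. By limma, 0 of 10 stellate cell, 0 of 3 cholangiocyte and 0 of 3 lymphocyte markers were called (unadjusted p under 0.05 for 2, 1 and 0). The wild-type control arrays also stood apart in 66 small nucleolar RNA genes, whose summed intensity was 28138 to 45984 there and 61516 to 88731 in the other 9 arrays. The part of these differences in the results below was not tested.

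None of the 8 measured genes passed the test in any comparison (limma with Benjamini-Hochberg adjustment over all 14031 genes, adjusted p under 0.05). Ethanol called 0.0927% of all tested genes in wild-type mice and 0.00713% in null mice, and 0.0143% both for ethanol averaged over the genotypes and for the interaction, which asks whether the ethanol difference depends on genotype. At an unadjusted p under 0.05, Bhmt and Pemt passed in wild-type mice, Cbs in null mice, Bhmt in the average and Pemt in the interaction. Of all tested genes, 14.5%, 12.2%, 12.1% and 15% passed unadjusted in these comparisons. Genotype called more of the transcriptome: 5.10% of tested genes on the control diet, 1.79% on the ethanol diet and 7.00% over both diets. Of the 8 genes, Pemt and Gamt passed unadjusted on the control diet, Bhmt and Cbs on the ethanol diet, and Cbs and Gamt over both. Among all tested genes the unadjusted shares were 22.1%, 16.2% and 21.4%, so 2 of 8 is close to the share of all genes. The median difference of the 8 genes was -0.03 on the log2 scale for genotype over both diets, beside -0.0005 for all tested genes, and -0.06 for ethanol over both genotypes, beside -0.02.

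**Figure D1:**
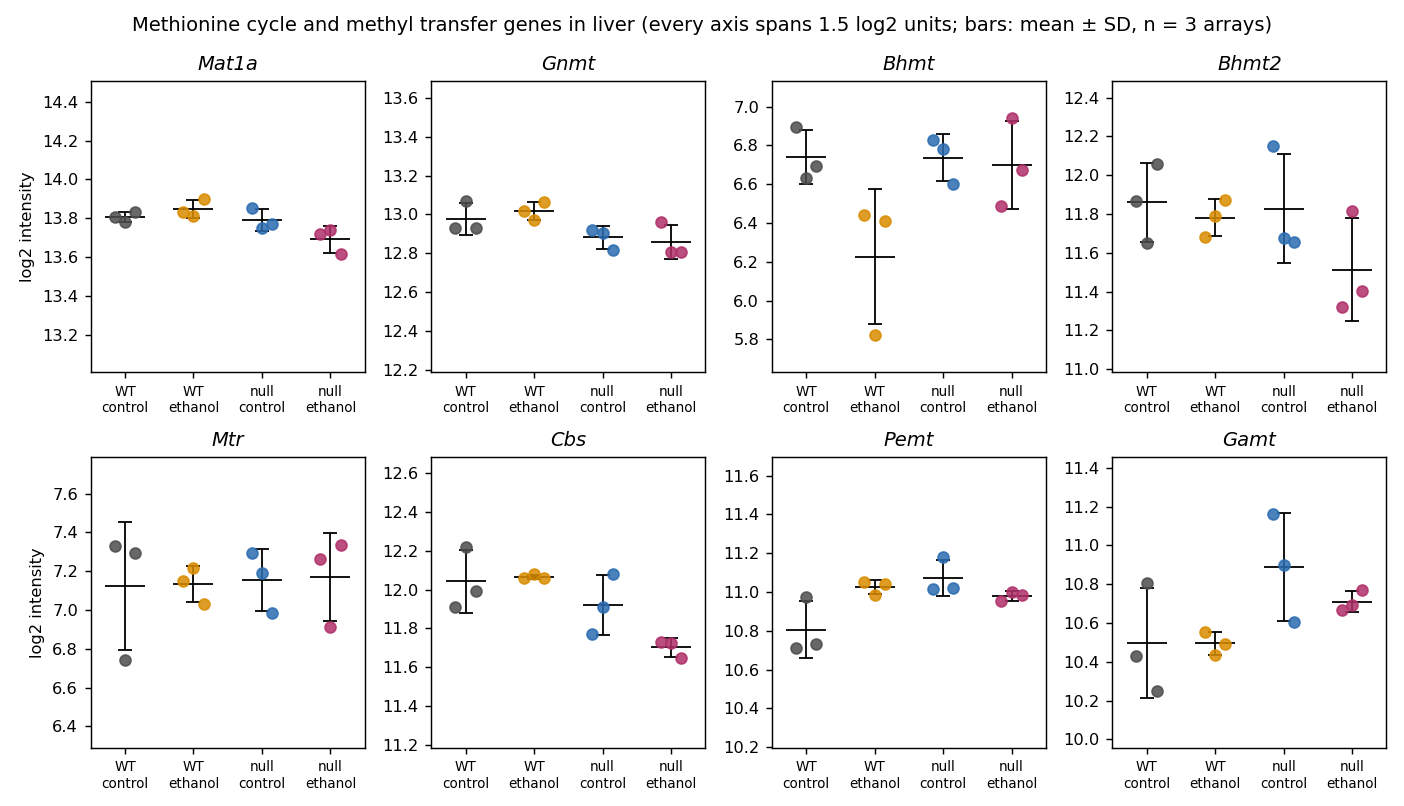
Log2 intensity of the 8 measured genes (vertical axis) in the 12 liver arrays, by genotype and diet (WT, wild-type). Points are arrays, and bars show the mean ± SD of 3 arrays. Bhmt has its lowest array, 5.82, among the wild-type ethanol arrays, and the null ethanol arrays of Cbs lie below all 9 others.

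Groups were also compared by whether their 3 arrays overlapped. With ethanol, 2 of the 8 genes were separated in wild-type mice (Pemt higher, Bhmt lower), where 19.4% of all tested genes were. In null mice 3 of 8 were separated (Mat1a, Cbs and Pemt, all lower), where 18.6% of tested genes were. Between genotypes, 2 of 8 were separated on the control diet (Pemt higher, Gnmt lower; 24.7% of tested genes). On the ethanol diet 5 of 8 were separated (Bhmt and Gamt higher in null mice, Mat1a, Gnmt and Cbs lower; 24.1% of tested genes). The counts of 2 are close to the share of all genes, and 3 of 8 and 5 of 8 are larger shares, although 0 of these differences passed the test.

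Mat1a, the catalytic subunit that makes S-adenosylmethionine in adult liver, stayed within 0.29 log2 units over all 12 arrays. Its log2 mean was 13.81 ± 0.03 (SD, n = 3) in wild-type control, 13.85 ± 0.05 in wild-type ethanol, 13.79 ± 0.06 in null control and 13.69 ± 0.07 in null ethanol arrays. The 3 null ethanol arrays (13.72, 13.74 and 13.61) were the lowest of the 12. All Mat1a values lay near the top of the deposited range, where Alb read 13.87 to 14.05. Changes may be understated there, which was not tested. The genotype difference on the ethanol diet was -0.16 ± 0.08 (SE; 95% confidence interval -0.33 to 0.01; adjusted p = 0.343). Ethanol gave 0.04 in wild-type mice (-0.13 to 0.21) and -0.10 in null mice (-0.27 to 0.07).

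Gnmt, glycine N-methyltransferase, disposes of excess S-adenosylmethionine by methylating glycine to sarcosine. Its means were 12.98 ± 0.08 and 13.02 ± 0.05 in wild-type control and ethanol arrays, and 12.88 ± 0.06 and 12.86 ± 0.09 in null control and ethanol arrays. Gnmt was below every wild-type array in 5 of 6 null arrays, the exception being a null ethanol array at 12.96. The genotype difference over both diets was -0.13 ± 0.06 (-0.26 to 0.0001; adjusted p = 0.234). Ethanol gave 0.04 in wild-type mice (-0.14 to 0.22) and -0.02 in null mice (-0.20 to 0.16).

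Bhmt and Bhmt2 are neighbouring, related genes on chromosome 13. Bhmt methylates homocysteine with betaine, which comes from choline, and Bhmt2 uses S-methylmethionine. Because Bhmt had the widest spread of the 8 genes, and because PPAR with its partner RXR binds direct repeats of AGGTCA-like hexamers, the 250 bases before the start sites of both genes are shown with those of Cbs for comparison (RefSeq, GRCm38.p6, all on the minus strand and written 5′ to 3′ in the direction of the gene). Capitals mark each AGGTCA on either strand. The regions are chr13:93637759-93638008 for Bhmt, chr13:93674303-93674552 for Bhmt2 and chr17:31637206-31637455 for Cbs.
Bhmt: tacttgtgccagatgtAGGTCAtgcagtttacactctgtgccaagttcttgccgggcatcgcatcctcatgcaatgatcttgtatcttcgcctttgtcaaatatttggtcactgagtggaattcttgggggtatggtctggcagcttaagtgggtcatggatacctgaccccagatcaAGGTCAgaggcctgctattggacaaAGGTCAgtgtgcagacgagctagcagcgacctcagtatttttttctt
Bhmt2: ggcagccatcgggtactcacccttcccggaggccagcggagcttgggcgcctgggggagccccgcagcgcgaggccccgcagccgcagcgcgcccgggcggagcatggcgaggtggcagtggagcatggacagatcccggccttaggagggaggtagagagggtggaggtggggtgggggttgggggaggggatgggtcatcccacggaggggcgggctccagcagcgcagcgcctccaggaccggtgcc
Cbs: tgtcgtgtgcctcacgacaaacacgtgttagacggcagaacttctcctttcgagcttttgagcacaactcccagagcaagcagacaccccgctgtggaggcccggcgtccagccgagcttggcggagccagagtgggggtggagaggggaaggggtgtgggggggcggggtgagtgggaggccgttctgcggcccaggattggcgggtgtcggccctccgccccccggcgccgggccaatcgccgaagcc

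RefSeq promoter entries, which span 250 bases before to 50 after a start site, were found for 8 of the 9 genes, all but Mat1a, and 9 entries in all. AGGTCA was searched on both strands, and overlapping matches were counted. Bhmt held 3 copies, all in the direction of the gene, starting at -234, -72 and -47 from the start site. Gnmt held 1, on the opposite strand, and the other 6 genes held none. At least 1 copy was present in 16.3% of 32851 promoter entries, and at least 3 in 0.183%. The cut-off of 3 is the count of Bhmt itself, a gene picked for its spread on these arrays. That share is therefore a description and not a test. The full direct repeat AGGTCANAGGTCA was in 0 of the 9 entries and in 0.0396% of all. Only exact hexamers were searched, so repeats of AGGTCA-like hexamers with other letters would be missed. The bases shown are 48% G or C for Bhmt, 74% for Bhmt2 and 68% for Cbs. A match is a description of these letters and not of binding.

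In wild-type mice Bhmt read 6.90, 6.63 and 6.69 on the control diet and 6.44, 5.82 and 6.41 on ethanol. In null mice it read 6.83, 6.78 and 6.60 on the control diet, and 6.49, 6.94 and 6.67 on ethanol. The 3 wild-type ethanol arrays were thus the lowest of the 12, while the null ethanol arrays spread to both sides of their controls. Ethanol gave -0.51 ± 0.16 (SE; -0.86 to -0.16; adjusted p = 0.185) in wild-type mice and -0.04 ± 0.16 (-0.39 to 0.31) in null mice. The interaction was 0.48 ± 0.23 (-0.02 to 0.97; adjusted p = 0.350), so the ethanol difference was not shown to depend on genotype. On the ethanol diet Bhmt stood 1.39-fold higher in null mice (log2 0.47 ± 0.16; adjusted p = 0.166). Wild-type ethanol array 2, at 5.82, carried much of this: without it, ethanol in wild-type mice gave -0.31 and genotype on the ethanol diet 0.27. The values of this probe set lay near the filter, which was between 5.61 and 5.71, and dim probe sets tend to understate a change. Array medians were 5.55 to 5.62, and whether a probe set this dim follows Bhmt RNA was not tested.

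Bhmt2 ran from 11.32 to 12.15 over the 12 arrays. Its means were 11.86 ± 0.20 and 11.78 ± 0.09 in wild-type control and ethanol arrays, and 11.83 ± 0.28 and 11.51 ± 0.27 in null control and ethanol arrays. The lowest values were the null ethanol arrays 1 and 3 (11.32 and 11.41), and the remaining one, 11.82, lay among the other groups. Ethanol in null mice gave -0.31 ± 0.16 (-0.66 to 0.03; adjusted p = 0.444) and in wild-type mice -0.08 ± 0.16. Unlike those of Bhmt, the wild-type ethanol values of Bhmt2 (11.68, 11.79 and 11.87) lay inside the range of their control group.

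Mtr, methionine synthase, methylates homocysteine with methylfolate and needs cobalamin. Its 4 group means lay between 7.12 and 7.17, and single arrays ran from 6.74 to 7.34. Ethanol gave 0.01 ± 0.16 in each genotype, with intervals of -0.33 to 0.35 in wild-type and -0.33 to 0.36 in null mice. Genotype gave 0.03 on the control and 0.04 on the ethanol diet. No difference in Mtr was detectable with 3 arrays a group, and differences inside these intervals could be present.

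Cbs, cystathionine β-synthase, joins homocysteine to serine and commits it to cysteine synthesis. It read 11.91, 12.22 and 11.99 in wild-type control arrays and 12.06, 12.08 and 12.06 in wild-type ethanol arrays. In null mice it read 11.77, 11.91 and 12.08 on the control diet and 11.73, 11.73 and 11.65 on ethanol. The control groups of the genotypes overlapped, while the ethanol groups did not. On the ethanol diet Cbs was 1.29-fold lower in null mice (log2 -0.36 ± 0.10; -0.58 to -0.14; adjusted p = 0.0995), and on the control diet the difference was -0.12 ± 0.10 (-0.34 to 0.10). The test of whether these differ gave -0.24 ± 0.14 (-0.55 to 0.07; adjusted p = 0.432). Over both diets the difference was -0.24 ± 0.07 (adjusted p = 0.0631), the smallest adjusted p among the 8 genes. Leaving out null control array 3, the highest null array, gave -0.28 and adjusted p = 0.0388. That was the only call of Cbs with a single array left out.

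Cbs and Gnmt lie on chromosome 17, as does Ppard, the gene altered in the null mice. RefSeq lists 93 genes between Ppard and Cbs, of which 46 were tested. Of these 46, 1 was called for genotype over both diets, which is 2.17% against 7.00% of all tested genes. That gene was Abcg1, a cholesterol exporter (log2 -0.41, adjusted p = 0.0311), which was named after its value was seen. Between Ppard and Gnmt lie 668 genes, with 274 tested and 14 called, 5.11%. The other measured genes lie on chromosomes 10 (Gamt), 11 (Pemt), 13 (Bhmt, Bhmt2 and Mtr) and 14 (Mat1a).

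Pemt methylates phosphatidylethanolamine to phosphatidylcholine, a large use of S-adenosylmethionine in liver. It read 10.71, 10.97 and 10.73 in wild-type control arrays and 11.05, 10.98 and 11.04 in wild-type ethanol arrays. It read 11.02, 11.18 and 11.02 in null control arrays and 10.95, 11.00 and 10.98 in null ethanol arrays. With ethanol every wild-type array lay above, and every null array below, its control group. The margins were narrow, and opposite separation of this kind was met by 2.08% of all tested genes. Ethanol gave 0.22 ± 0.09 (0.02 to 0.42; adjusted p = 0.293) in wild-type and -0.09 ± 0.09 (-0.29 to 0.10) in null mice. The interaction was -0.31 ± 0.13 (-0.59 to -0.04; adjusted p = 0.283). On the control diet Pemt was 1.20-fold higher in null mice (log2 0.27 ± 0.09; adjusted p = 0.106), and on the ethanol diet the difference was -0.05 ± 0.09. Without wild-type control array 2, the highest of its group, the control diet difference was 0.35 (adjusted p = 0.0247). That was the only call of Pemt with a single array left out. The wild-type control arrays enter both comparisons, and they are also those with low small nucleolar RNA values.

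Gamt, guanidinoacetate N-methyltransferase, makes creatine. It read 10.43, 10.81 and 10.25 in wild-type control arrays and 10.55, 10.44 and 10.49 in wild-type ethanol arrays. It read 11.16, 10.90 and 10.61 in null control arrays and 10.66, 10.69 and 10.77 in null ethanol arrays. The null arrays exceeded all wild-type arrays on the ethanol diet and overlapped with wild-type control array 2 on the control diet. The genotype difference was 0.39 ± 0.15 (0.07 to 0.71; adjusted p = 0.140) on the control diet and 0.21 ± 0.15 (-0.11 to 0.54; adjusted p = 0.515) on the ethanol diet. Without wild-type control array 2, the control diet difference was 0.55 (adjusted p = 0.0312). Over both diets Gamt was 1.23-fold higher in null mice (log2 0.30 ± 0.10; adjusted p = 0.106). Without wild-type control array 2 this was 0.38 (adjusted p = 0.0265), and without null control array 3 it was again 0.38 (adjusted p = 0.0432). Gamt was not called in the other fits with a single array left out. Ethanol gave -0.0007 ± 0.15 in wild-type and -0.18 ± 0.15 in null mice.

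**Figure D2:**
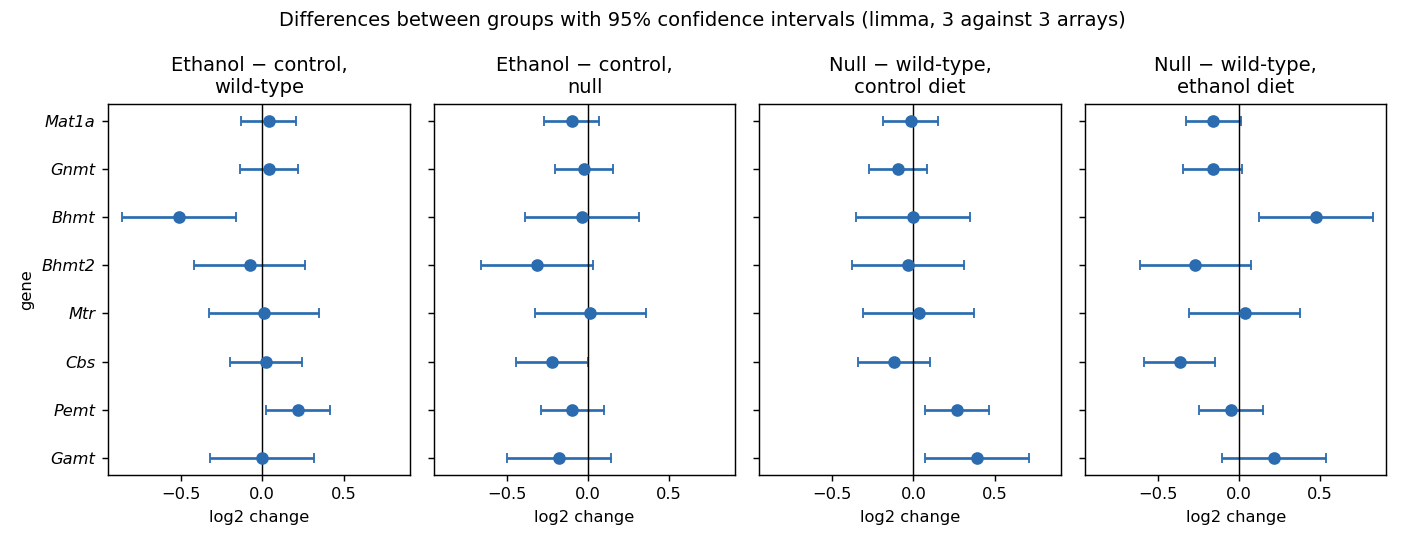
Log2 differences (horizontal axis) of the 8 genes (vertical axis) for ethanol in each genotype and for genotype on each diet. Points are limma estimates and bars are 95% confidence intervals. The intervals that leave out 0 are those of Bhmt and Pemt for ethanol in wild-type mice, Cbs for ethanol in null mice, Pemt and Gamt for genotype on the control diet, and Bhmt and Cbs for genotype on the ethanol diet.

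**Figure D3:**
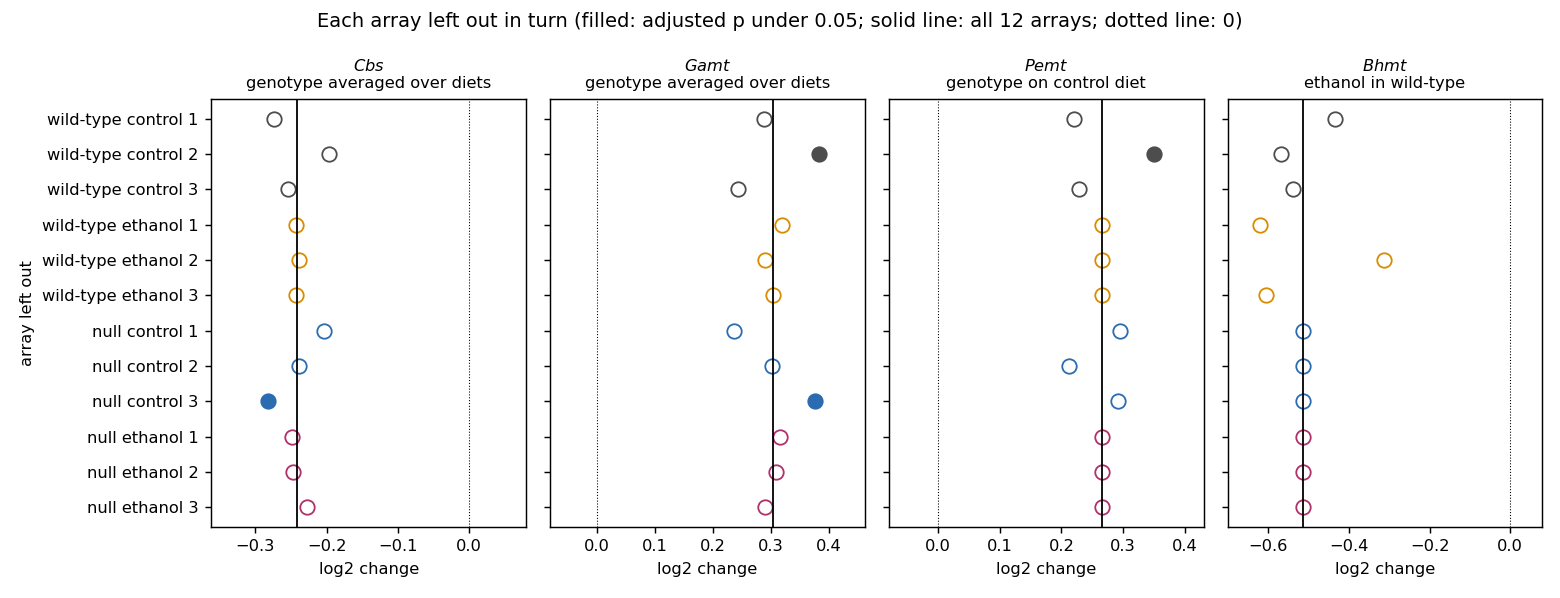
Log2 difference (horizontal axis) with each of the 12 arrays left out in turn (vertical axis), for 4 of the results. Filled points have an adjusted p under 0.05 and the solid line marks all 12 arrays. Filled points appear for Cbs without null control array 3, for Gamt without that array or wild-type control array 2, and for Pemt without wild-type control array 2, and Bhmt moves from -0.51 to -0.31 without wild-type ethanol array 2.

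The 8 genes did not move as 1 group. Over 12 arrays, which include the group differences, Pearson's r for the 28 pairs ran from -0.52 to 0.75 with a median of -0.08. Within groups, with each group's mean taken out, it ran from -0.81 (Cbs with Mtr) to 0.71 (Mat1a with Bhmt2). Mat1a with Bhmt2 gave 0.75 over all arrays, and Gnmt with Cbs gave 0.63. Among 12793 tested genes, other than predicted genes, clone names and small RNAs, the gene most like each member was Tm7sf3 for Mat1a (r = 0.92), Bhlhb9 for Gnmt (0.90), Wnt4 for Bhmt (0.90), Zfp12 for Bhmt2 (0.95), Wdhd1 for Mtr (0.87), Steap3 for Cbs (0.93), Znrd2 for Pemt (0.93) and Pdk2 for Gamt (0.92). These were the highest of many values over 12 arrays that share genotype and diet, and are a description.

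The other genes of the pathway were read from 9 lists with 91 genes, of which 78 were tested, 4 were below the filter and 9 are not analysed here. For ethanol in wild-type mice, ethanol in null mice and the interaction, limma called 0 of the 78 (unadjusted p under 0.05 for 16, 14 and 14, where 14.5%, 12.2% and 15% of all tested genes passed). For genotype over both diets it called 15 of the 78, 6 higher and 9 lower, which is 19.2% against 7.00% of all tested genes. The lists were chosen with earlier results of these data known, so such shares are a description and not a test of the pathway. For genotype on the control diet limma called 6 higher and 3 lower (11.5% against 5.10% of all tested genes). Those higher were Slc46a1, Slc19a1, Pcyt2, Tpmt, Prmt1 and the methionine salvage gene Mri1 (log2 0.51; adjusted p = 0.0175). Those lower were Ahcy, Ahcyl2 and Nnmt. On the ethanol diet limma called 1 higher, Tpmt, and 4 lower, Cth, Agxt, Chka and Nnmt (6.41% against 1.79%).

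Cth, cystathionine γ-lyase, takes the product of Cbs on to cysteine and was lower in null livers. It read 12.44, 12.51 and 12.52 in wild-type control and 12.52, 12.36 and 12.68 in wild-type ethanol arrays. It read 12.19, 11.61 and 12.15 in null control and 11.57, 11.55 and 11.70 in null ethanol arrays, all below every wild-type array. Cth fell by 0.71 on the log2 scale over both diets (SE 0.10; adjusted p = 0.000900) and by 0.92 on the ethanol diet (SE 0.14; adjusted p = 0.00338), where Cbs gave -0.36.

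Ahcy, which splits S-adenosylhomocysteine into homocysteine and adenosine, was lower in null mice by log2 -0.39 ± 0.07 (adjusted p = 0.00648) over both diets. Its second, dimmer probe set gave -0.15. Of the users of S-adenosylmethionine outside the 8 genes, Nnmt, which methylates nicotinamide, was lower by -3.30 ± 0.25 (adjusted p = 5.43e-06). It ran from 8.19 to 9.47 in wild-type arrays and from 4.69 to 6.57 in null arrays, where most values lay below the filter, so this difference may be understated. Tpmt, thiopurine methyltransferase, was higher by 0.89 ± 0.10 (adjusted p = 9.70e-05). Agxt, alanine-glyoxylate aminotransferase, which makes glycine, gave -0.40 ± 0.09 over both diets (adjusted p = 0.0161). It was lower in null mice on the ethanol diet (-0.85 ± 0.13; adjusted p = 0.00290) and gave 0.04 ± 0.13 on the control diet (adjusted p = 0.875). Chka, a choline kinase, was lower by -0.86 ± 0.18 (adjusted p = 0.0127), although its other, dim probe set gave -0.20. Gatm, which makes the guanidinoacetate that Gamt methylates, was lower by -0.48 ± 0.13 (adjusted p = 0.0360), while Gamt gave 0.30.

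The folate transporters Slc19a1 (0.32 ± 0.06; adjusted p = 0.0104) and Slc46a1 (0.30 ± 0.06; adjusted p = 0.0113) were higher in null mice, and Folr2, a folate receptor that is also a macrophage marker, was lower (-0.46 ± 0.12; adjusted p = 0.0347). The remaining calls were Ahcyl2 (-0.23), Gldc (-0.41), Gss (0.26), Pcyt2 (0.29) and Adi1 (0.33). Of the 15 calls, those of Ahcy, Cth, Agxt, Chka, Nnmt, Slc19a1, Slc46a1 and Tpmt passed with each array left out in turn, and the others were lost without at least 1 array.

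**Figure D4:**
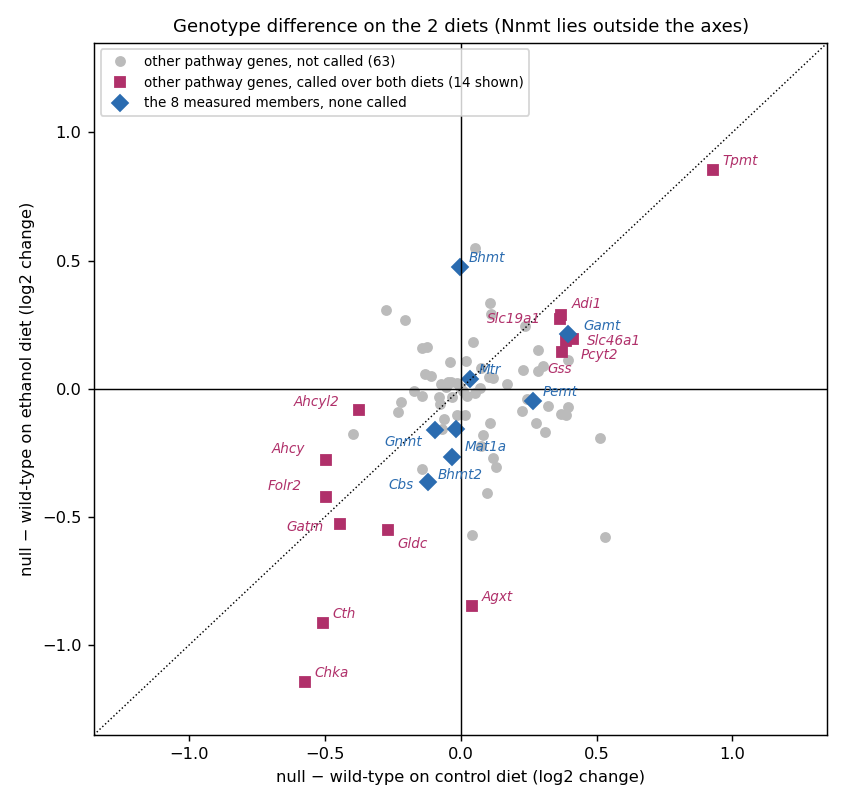
Null minus wild-type log2 difference on the control diet (horizontal axis) and on the ethanol diet (vertical axis) for the 8 measured genes (diamonds) and the other pathway genes (squares, called over both diets; circles, not called). The dotted line marks equal differences and Nnmt lies outside the axes. Of the 8 genes, Gamt lies nearest to the called genes at upper right, at 0.39 and 0.21. Cbs lies at -0.12 and -0.36, and Mat1a, Gnmt and Bhmt2 are also at negative values on both axes. Cth, a called gene, lies at -0.51 and -0.92.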

How the data were processed

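Liver RNA was hybridised to 12 Affymetrix Mouse Gene 2.0 ST arrays, and groups were taken from the labels. The deposited values are 1 linear intensity per probe set and array, from 1.816 to 20156, which the authors had normalised by RMA (named in the submitters' processing notes). The software version and the build of the probe annotation are not stated there. Log2 was taken here, and array medians lay between 5.55 and 5.62. Of 41345 probe sets, 23521 name 1 gene, and 1 per gene was used. A gene was tested if above its array's 40th percentile on at least 3 arrays. Group means were fitted together over all arrays in limma 3.58.1 (R 4.3.3; 8 residual and 4.95 prior degrees of freedom) with 7 contrasts, and calls were made at a Benjamini-Hochberg adjusted p under 0.05. The number of arrays limits the precision.

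Members and gene lists were chosen with earlier results of these data known. Named genes are the 8 measured members, up to 4 called genes per pathway list and contrast with the smallest p, or up to 2 where none was called, Ahcy, Cth, Gatm, Nnmt and Ppard throughout, and the closest genes by correlation. Values of uncalled pathway genes are given only as counts. The planned comparison of Mat1a with Mat2a was not run because Mat2a is not analysed here. The fit was tested on simulated data. Alternatives were array weights, quantile normalization, median centring, no filter or a 60th percentile filter, the mean of probe sets, trend and robust fitting, the compared groups alone, a replicate block, each array left out, and, chosen after seeing the data, small nucleolar RNA genes left out.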

Additional observations from a re-analysis of the deposited data

Results flagged for a closer look

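In 4 of 26 genes looked at, every ethanol array lay on one side of its control group in wild-type mice and on the opposite side in null mice, as did 292 of 14031 tested genes (2.08%). Apart from the members and Ppard, the 26 were pathway genes called for genotype on these same arrays. Such calls are not independent of the ethanol differences, so setting 4 of 26 beside 2.08% is not a test. The ethanol difference in null minus that in wild-type mice was -0.31 ± 0.13 (SE) on the log2 scale for Pemt (adjusted p = 0.283, limma interaction). It was -0.89 ± 0.18 for Agxt (adjusted p = 0.170), which read 10.95, 11.26 and 10.91 in wild-type control, 11.50, 11.55 and 11.51 in wild-type ethanol, 11.14, 11.08 and 11.03 in null control and 10.82, 10.83 and 10.38 in null ethanol arrays. It was -0.47 ± 0.13 for Prmt1, an arginine methyltransferase (adjusted p = 0.191), and 0.29 ± 0.12 for Ahcyl2, a relative of Ahcy (adjusted p = 0.286). None of the 4 passed the test of the difference itself.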

How the results depend on the processing

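No difference that was called, with all arrays or under an alternative, changed sign. Of the 56 member differences, 17 took the other sign under at least 1 alternative, none of them called and none over 0.08 log2 units with all arrays. All 7 of Mtr are among these, and for ethanol in wild-type mice Mtr ran from -0.18 to 0.11, Gamt from -0.12 to 0.15, Cbs from -0.04 to 0.11, Bhmt2 from -0.18 to 0.02 and Mat1a from -0.01 to 0.06. The count of members called was 0 in both ethanol comparisons, their average and the interaction under each alternative run. The fit of the compared groups alone applies to the 4 comparisons of a pair of groups and was not run for the averages or the interaction. For genotype on the control diet it was 2 (Pemt and Gamt) with array weights. For genotype on the ethanol diet it was 1 (Cbs) with array weights. For genotype over both diets it was 2 (Cbs and Gamt) with array weights, 1 (Cbs) with the 60th percentile filter and 1 (Cbs) with trend and robust fitting. With each array left out, it ranged from 0 to 2 for genotype on the control diet (2 without wild-type control array 2) and from 0 to 2 over both diets (1, Gamt, without wild-type control array 2; 2 without null control array 3). The array weights were lowest for wild-type control array 2 (0.352) and null ethanol array 3 (0.429). With the replicate number as a replicate block, 0 members were called in each contrast. The labels give the replicate number no meaning. Deviations of same-numbered arrays correlated between -0.15 and 0.19, so no strong shared deviation was seen, which does not exclude a pairing.

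Counts over all genes moved more. Without wild-type control array 2, ethanol in wild-type mice called 810 genes in place of 13, ethanol over both genotypes 293 in place of 2, and the interaction 84 in place of 2. Array weights gave 832, 133 and 38. Ethanol in wild-type mice called 0 genes without wild-type ethanol array 2, and 0 with small nucleolar RNA genes left out, where ethanol over both genotypes called 1 and the interaction 0. That setting gave 642, 250 and 958 genotype calls on the control diet, on the ethanol diet and over both. Genotype calls ran from 192 to 1304 on the control diet, 108 to 319 on the ethanol diet and 621 to 1314 over both, with each array left out. The planned Mat1a against Mat2a comparison was not run because Mat2a is not analysed here. With 3 arrays a group and a dim Bhmt probe set, differences within the intervals given could be present without being called.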
